A study of Mus musculus with 6 samples.

Results

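The regulators of G-protein signalling (RGS proteins) end the signals of heptahelical receptors. A receptor such as S1PR1 loads the α subunit of a G protein with GTP, and an RGS protein speeds the hydrolysis of that GTP, so the subunit falls back to its inactive state. In lymphocytes most receptors for chemokines and for sphingosine 1-phosphate (S1P) use the Gi class of G proteins, and RGS1 and RGS16 are known to blunt the migration of lymphocytes towards their ligands. The 9 RGS genes described here, Rgs1, Rgs2, Rgs3, Rgs10, Rgs11, Rgs14, Rgs16, Rgs18 and Rgs19, were chosen by name among the 56941 genes of a count table, and all 9 were among the 13299 genes with enough reads to be tested. They stand beside 13 other RGS genes of the mouse, of which 2 could be tested. The 9 genes and the gene lists below were chosen with earlier results of these data known. The numbers tested and called are therefore a description only.

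The question was whether S1P altered the transcripts of these regulators in murine CD8+ T cells. Splenic naïve CD8+ T cells of B6 mice were stimulated for 3 days on plate-bound anti-CD3 with anti-CD28 and recombinant IL-2, and 24 h after the start the cultures received S1P at 5 µM (3 samples) or vehicle (3 samples). By this description both groups share the mouse strain, the stimulation and the cytokine, and the stated difference between them is the lipid. The methods of the study name total splenocytes beside purified cells as a starting material. The labels call the samples biological replicates without saying whether they came from separate mice. The p-values weigh each change against the spread between these samples, whatever their origin. RNA was sequenced as polyadenylated, strand-specific libraries, and the values are reads counted per gene.

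The 6 libraries held between 12048880 and 17384084 counts. S1P replicate 2 stood apart, with 7.80% of its counts in mitochondrial genes against 4.10% to 4.93% in the other 5 libraries. Markers of the labelled cell type were present, with Cd8a at a mean of 61.0 with vehicle and 38.3 with S1P in RPKM (counts scaled by library size and by kilobases of exon). Cd4 was also present, at 45.2 and 48.6 RPKM, and all 9 genes of a B cell list were detected and tested. The summed level of that B cell list was 868, 688 and 864 CPM (counts scaled by library size) in vehicle replicates 1 to 3 and 739, 834 and 790 CPM in S1P replicates 1 to 3, and 1 of its genes was called higher and 3 were called lower after S1P. Of the CD8 list, Cd8a and Cd8b1 were lower and none of the 8 genes was higher. Of the 4 genes of a CD4 list, Cd40lg (log2 fold change 0.50, adjusted p = 0.0134, edgeR) and Zbtb7b (0.37, adjusted p = 0.00886, edgeR) were higher and none was lower, the call of Cd40lg being lost without vehicle replicate 2 or S1P replicate 3, and the summed level of that list was 250, 229 and 272 CPM with vehicle and 252, 319 and 266 CPM with S1P. The part of these other cells in the RGS results was not tested, and in RNA from whole cultures a change in the share of a cell type and a change in RNA per cell cannot be told apart.

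Of the 9 RGS transcripts, Rgs1, Rgs2, Rgs10 and Rgs11 rose with S1P, Rgs3 fell, and Rgs14, Rgs16, Rgs18 and Rgs19 did not pass the test. Calls needed both, a Benjamini-Hochberg adjusted p no higher than 0.05 in edgeR's quasi-likelihood test and a change of 0.3 or more on the log2 scale. Among all tested genes, 12.7% were called higher and 10.4% were called lower. Apart from Rgs11, the called changes were of one size, between 1.27-fold and 1.28-fold in either direction. The median log2 fold change of the 9 genes was -0.05 and that of all tested genes was 0.01.

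**Figure D1:**
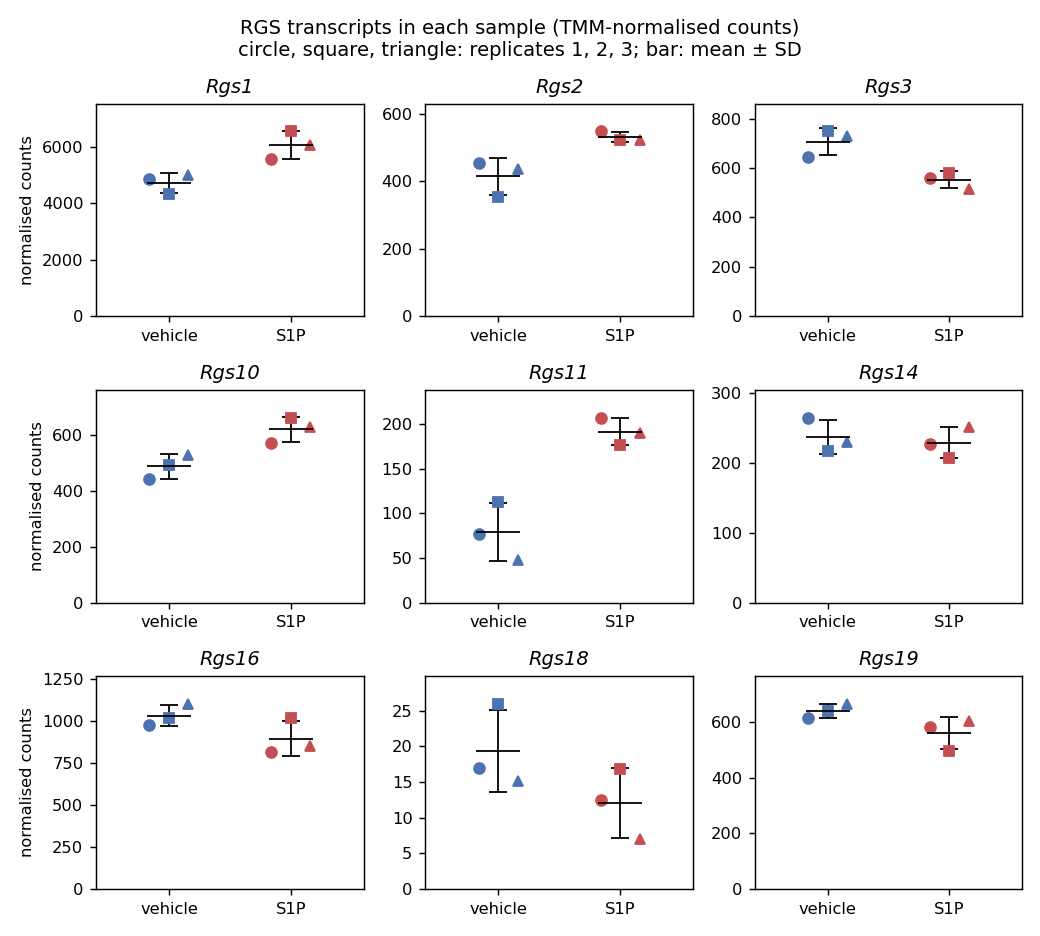
TMM-normalised counts (y axes, from 0) of each RGS gene in the 3 vehicle-treated and 3 S1P-treated samples, with marker shapes for replicates 1 to 3 and bars for mean ± SD. The S1P samples lie above all vehicle samples for Rgs1, Rgs2, Rgs10 and Rgs11 and below them for Rgs3 and Rgs19.

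Rgs1, Rgs2, Rgs3, Rgs16 and Rgs18 belong to the R4 family, small proteins made of little more than the RGS domain, apart from the longer forms of RGS3. Most of them act on Gi and Gq subunits, and RGS2 is known for its preference for Gq. Before their values, the bases upstream of 3 of these genes are shown, because the genes represent the 3 outcomes seen here: Rgs2 was higher, Rgs3 was lower, and Rgs16, next to Rgs1 in level in vehicle-treated samples, was not called. The sequences are those of the RefSeq promoter table (GRCm38.p6), placed by exact match in GRCm39, and each ends where the first annotated exon base of the gene begins. Rgs2 lies on the minus strand (chr1:143879900-143880137), Rgs3 on the plus strand (chr4:62477834-62478083) and Rgs16 on the plus strand (chr1:153615849-153616090), and all 3 are written 5′ to 3′ on the strand of the gene. Capitals mark TGACG on either strand, the half-site of the cAMP response element that CREB and ATF factors bind.
Rgs2: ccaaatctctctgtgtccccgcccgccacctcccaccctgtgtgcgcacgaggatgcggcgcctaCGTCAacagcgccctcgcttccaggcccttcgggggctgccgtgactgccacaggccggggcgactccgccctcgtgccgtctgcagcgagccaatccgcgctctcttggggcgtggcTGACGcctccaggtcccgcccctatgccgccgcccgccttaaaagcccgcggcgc
Rgs3: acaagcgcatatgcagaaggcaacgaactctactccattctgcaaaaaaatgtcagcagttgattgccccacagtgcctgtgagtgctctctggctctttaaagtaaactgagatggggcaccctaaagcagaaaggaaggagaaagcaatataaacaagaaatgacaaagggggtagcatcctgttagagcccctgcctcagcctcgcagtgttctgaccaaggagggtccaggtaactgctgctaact
Rgs16: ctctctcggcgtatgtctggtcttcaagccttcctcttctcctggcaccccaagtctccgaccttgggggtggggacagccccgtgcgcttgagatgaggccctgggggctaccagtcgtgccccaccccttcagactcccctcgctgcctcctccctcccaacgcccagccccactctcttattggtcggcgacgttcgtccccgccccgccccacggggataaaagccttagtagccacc

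The window of 250 bases before the RefSeq start held 2 such half-sites at Rgs2 and 0 at Rgs3 and Rgs16. Of the 8 windows that the table gives for 5 of the RGS genes, that of Rgs2 was the only one with a half-site, the window of Rgs10, also called higher, having 0, and 17.8% of the 32851 windows of that length in the table held at least 1. The whole element, TGACGTCA, which contains the half-site, was in 1.55% of all windows and in none of these 8. The windows also differed in base composition, with 72.4% G and C at Rgs2 and 66.4% at Rgs16 against 48.4% at the Rgs3 window shown, beside a median of 52.4% over all windows. A second Rgs3 start in the table, further into the gene, had 56.8%. The AP-1 motif TGANTCA and the C/EBP-ATF composite TGATGNAA, searched on both strands, were in none of the 8 windows and in 6.75% and 3.45% of all windows. The hypoxia response core ACGTG was also in none of the 8 windows and in 16.6% of all windows. The NFAT core GGAAA was in windows of Rgs19 and in that of the second Rgs3 start, and in 55.6% of all windows. These are matches of letters in one window per start, not sites of binding.

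Rgs1 had the highest level of the family. It had 4849, 4328 and 5024 normalised counts in vehicle replicates 1 to 3 and 5578, 6552 and 6065 in S1P replicates 1 to 3. Every S1P sample was above every vehicle sample, and S1P replicate 2, the library that stands apart, was the highest. The mean was 4734 ± 362 with vehicle and 6065 ± 487 with S1P (SD, n = 3), and the log2 fold change was 0.36 with a standard error of 0.08 (adjusted p = 0.00786, edgeR). Without S1P replicate 2 the log2 fold change was 0.299 (adjusted p = 0.00491), which is just under the threshold of size, and without vehicle replicate 2 it was 0.29 (adjusted p = 0.0507).

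Rgs2, 238 kb from Rgs1 on chromosome 1, moved by the same amount. Its normalised counts were 454, 354 and 438 in vehicle-treated and 548, 524 and 523 in S1P-treated samples. The S1P samples lay close together and above all vehicle samples, while vehicle replicate 2 was well below the other vehicle samples. The log2 fold change was 0.35 with a standard error of 0.10 (adjusted p = 0.0200, edgeR). It was 0.25 (adjusted p = 0.0810) without vehicle replicate 2 and 0.36 (adjusted p = 0.0581) without S1P replicate 3. Vehicle replicate 2 was also the sample with the lowest Rgs1 and the lowest summed levels of the B cell and CD4 lists, whose values in all 6 samples are given above. The same sample had the highest Cd8a and Cd8b1, at 3694 and 2156 normalised counts. Whether the RGS levels go with these markers was not tested.

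Rgs3, on chromosome 4, was the only member called lower. It had 643, 748 and 728 normalised counts in vehicle-treated samples and 561, 581 and 515 in S1P-treated samples, with no overlap. The log2 fold change was -0.35 with a standard error of 0.09 (adjusted p = 0.0102, edgeR), a 1.28-fold lower level. The call was lost without vehicle replicate 3 (log2 fold change -0.33, adjusted p = 0.0516) and held without each of the other 5 libraries.

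Rgs16, which is induced by T cell activation, was not called. Its normalised counts were 975, 1014 and 1100 in vehicle-treated and 817, 1014 and 852 in S1P-treated samples. S1P replicate 2 reached the level of vehicle replicate 2, and the other S1P samples were below all vehicle samples. The log2 fold change was -0.21 (95% confidence interval -0.40 to -0.01, adjusted p = 0.108, edgeR), and without S1P replicate 2 it was -0.30 (adjusted p = 0.00535), past both thresholds.

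Rgs18, known from platelets and megakaryocytes, was close to the detection limit, with 20, 24 and 16 raw counts in vehicle-treated and 15, 13 and 6 in S1P-treated samples. The groups overlapped, and the log2 fold change of -0.67 had a 95% confidence interval from -1.47 to 0.13 (adjusted p = 0.196, edgeR). Of 8 platelet and megakaryocyte markers, Treml1 had 0 counts in every library, as had Gp1bb, whose exons overlap other genes on the same strand, no marker exceeded 18 counts, and their summed level was 1.76 to 2.89 CPM in the vehicle group and 1.18 to 1.96 CPM in the S1P group.

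The R12 family is represented by Rgs10, which codes for a small protein acting on Gi subunits, and by Rgs14, whose product also binds Ras proteins and Gαi in its GDP-bound form. Rgs10 had 442, 494 and 530 normalised counts in vehicle-treated and 572, 662 and 628 in S1P-treated samples, so the groups did not overlap. Its log2 fold change was 0.34 with a standard error of 0.09 (adjusted p = 0.0166, edgeR). This call was the least steady of the 5. It held in 2 of the 6 fits that left out 1 library and was lost without S1P replicate 2 (0.297, adjusted p = 0.0216), S1P replicate 3 (0.33, adjusted p = 0.0598), vehicle replicate 1 (0.27, adjusted p = 0.0905) and vehicle replicate 2 (0.35, adjusted p = 0.0528). Rgs14 had 264, 217 and 229 normalised counts in vehicle-treated and 227, 207 and 251 in S1P-treated samples, and the groups overlapped over nearly their whole range. Its log2 fold change was -0.05 with a 95% confidence interval from -0.31 to 0.20 (adjusted p = 0.755, edgeR).

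Rgs11 showed the largest change of the 9 genes. It had 76.5, 112 and 48.3 normalised counts in vehicle-treated and 207, 177 and 190 in S1P-treated samples. The lowest S1P sample was above the highest vehicle sample by a wide margin, and the vehicle samples varied more among themselves than the S1P samples did. The mean was 79.1 ± 32.1 with vehicle and 191 ± 15.1 with S1P (SD, n = 3), a 2.45-fold higher level, with a log2 fold change of 1.30 and a standard error of 0.22 (adjusted p = 0.00150, edgeR). It was called in all 6 fits that left out 1 library, with log2 fold changes from 1.04 to 1.61.

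RGS11 belongs to the R7 family, best known from retina and brain, whose proteins are stable only as complexes with the Gβ5 subunit and are held at membranes by small anchor proteins. Among the partners, Gnb5, picked after its values were seen, had 59.5, 58.4 and 50.2 normalised counts in vehicle-treated and 63.0, 53.0 and 64.8 in S1P-treated samples, and these overlapped (log2 fold change 0.11, 95% confidence interval -0.28 to 0.50, adjusted p = 0.677, edgeR). The anchor gene Rgs9bp had only 4, 9 and 1 raw counts in vehicle-treated and 17, 11 and 22 in S1P-treated samples, and it passed the filter on low counts only through the S1P group, so its fold change is not taken as a result. Rgs9, the only other R7 gene that could be tested, was at 39.1, 56.2 and 37.0 against 34.0, 46.6 and 52.1 normalised counts, with a log2 fold change of -0.01 (adjusted p = 0.988, edgeR).

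Rgs19, of the RZ family, codes for the protein also called GAIP, which acts on Gi subunits. It had 616, 642 and 666 normalised counts in vehicle-treated and 584, 498 and 605 in S1P-treated samples. All S1P samples were below all vehicle samples. The log2 fold change of -0.19 (standard error 0.09) did not pass the test (adjusted p = 0.133, edgeR). With Rgs19 counted, 6 of the 9 genes had no overlap between groups, S1P being above in 4 and below in 2. Of all tested genes, 23.0% had S1P above and 22.6% had S1P below without overlap.

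**Figure D2:**
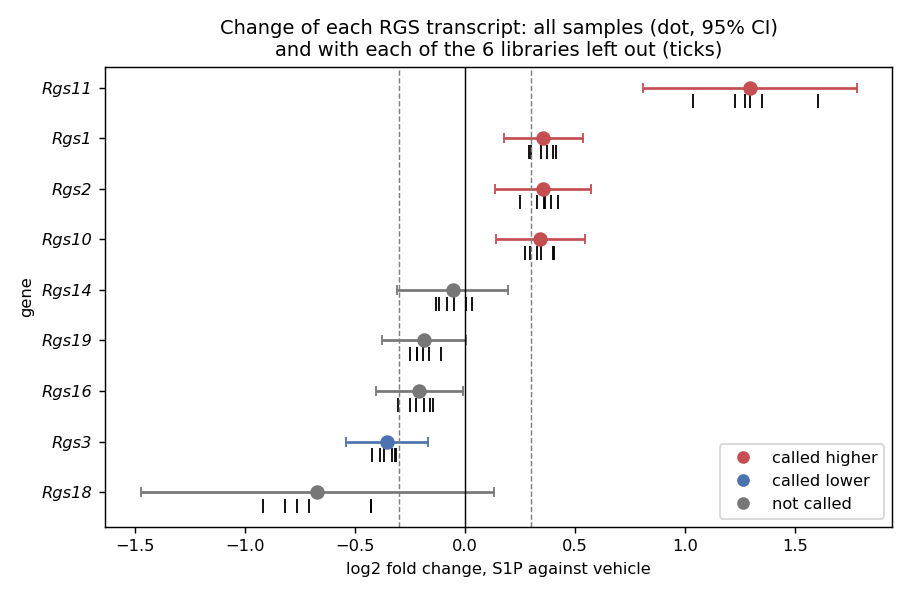
Log2 fold change of each RGS gene (x axis), S1P against vehicle, with its 95% confidence interval, and below it as ticks the values with each of the 6 libraries left out; dashed lines mark the threshold of 0.3 in either direction. Rgs11 stays beyond 1 in every fit, while the ticks of Rgs1, Rgs2 and Rgs10 reach under 0.3 and those of Rgs14 lie on both sides of 0.

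Levels can be compared between genes only per length of transcript, so CPM values were divided by kilobases of annotated exon (RPKM). In vehicle-treated samples the mean RPKM was 46.2 for Rgs1, 29.6 for Rgs16, 15.3 for Rgs19, 14.9 for Rgs10, 7.76 for Rgs2, 4.41 for Rgs3, 1.84 for Rgs14, 1.04 for Rgs11 and 0.55 for Rgs18. Neighbours in that order did not overlap between samples, apart from Rgs19 with Rgs10 and Rgs11 with Rgs18. With S1P the order changed in 2 places. Rgs10, at 18.9, stood above Rgs19, at 13.4, and Rgs11, at 2.53, stood above Rgs14, at 1.77, with no overlap in either pair. The order depends on the length used: with canonical transcript lengths Rgs10 was already above Rgs19 in vehicle-treated samples (26.7 and 23.6 RPKM, overlapping) and Rgs3 above Rgs2 (12.3 and 9.32 RPKM), and with S1P Rgs10 (33.9 RPKM) was above Rgs16 (25.7 RPKM) and Rgs2 (11.9 RPKM) above Rgs3 (9.64 RPKM). By length of all exons, Rgs1 exceeded 95.8% of all tested genes and Rgs16 exceeded 90.5%, whereas Rgs11 exceeded 33.3% and Rgs18 12.4%. The largest relative change was in one of the scarcest members.

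The summed level of the 9 genes was 120, 117 and 128 RPKM in vehicle-treated and 128, 143 and 135 in S1P-treated samples, so S1P replicate 1 was within the vehicle range. Rgs1 made up 39.6%, 36.1% and 38.2% of that sum in vehicle-treated and 42.6%, 44.7% and 43.9% in S1P-treated samples. Rgs16 made up 23.5%, 24.9% and 24.7% and then 18.4%, 20.4% and 18.2%, and Rgs19 went from a mean of 12.6% to 9.97%. The pair Rgs1 and Rgs16 thus held the larger part of the RGS transcripts in both groups, with more of it as Rgs1 after S1P. The annotation counts every base of the Rgs1 gene as exon, 6947 in all, since some of its transcripts keep introns. With the length of the canonical transcript, 3841 bases, used for Rgs1 and likewise for the others, its mean share was 43.7% in vehicle-treated and 49.0% in S1P-treated samples.

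**Figure D3:**
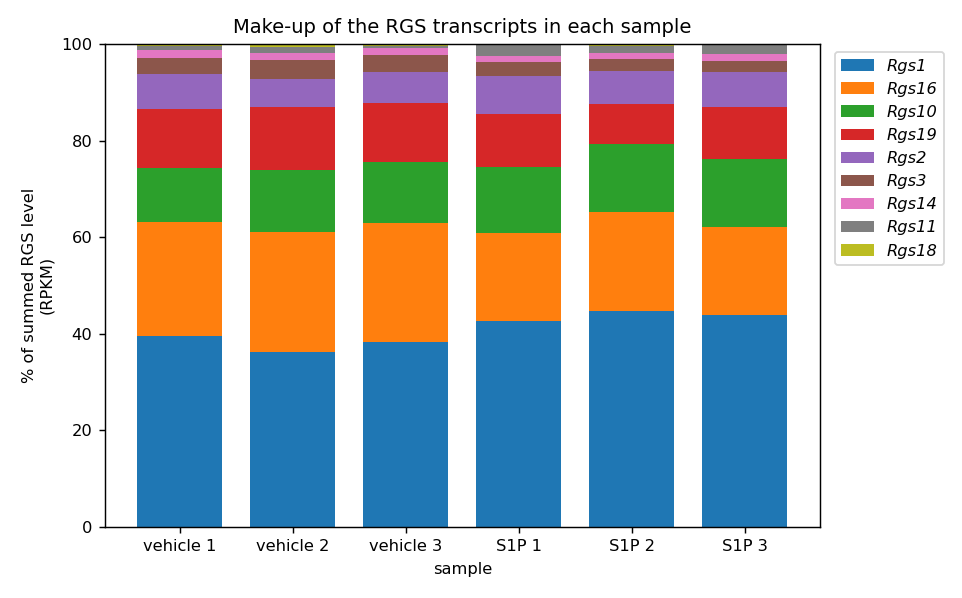
Share of each RGS gene in the summed level (y axis, percent of RPKM) in each of the 6 samples. Rgs1 is the largest part in every sample, from 36.1% to 39.6% in vehicle and from 42.6% to 44.7% in S1P samples, and the part of Rgs16 is smaller in S1P samples.

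The 9 genes lie on 6 chromosomes (GRCm39, GENCODE vM39), and 4 of them are on chromosome 1. Rgs2 (chr1:143875076-143879899) and Rgs1 (chr1:144118034-144124980) are on the minus strand, as is Rgs18 (chr1:144628291-144651189), 503 kb beyond Rgs1. Rgs16 (chr1:153616091-153621228) is on the plus strand, 8965 kb further along. The others are Rgs19 (chr2:181330212-181335997), Rgs3 (chr4:62478084-62622238), Rgs10 (chr7:127975345-128020482), Rgs14 (chr13:55517258-55535857) and Rgs11 (chr17:26421904-26430829). Exons on the opposite strand cover 18.7% of the exon bases of Rgs16 (Gm28513), 15.8% of Rgs19 (Tcea2), 11.3% of Rgs2 (Gm41964) and 3.45% of Rgs11 (Arhgdig and Fam234a). The libraries keep the strand, but the strand setting of the counting is not given in the sources used here, so part of the reads at these 4 genes may belong to their neighbours.

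Within 250 kb of the 9 genes there were 66 tested genes outside the group, 3 called higher and 6 called lower. The shares over all tested genes were 12.7% called higher and 10.4% called lower. The called neighbours of Rgs3 were all lower, with log2 fold changes of -0.70 for Alad (aminolevulinate dehydratase, of haem synthesis), -0.96 for Bspry and -0.38 for Prpf4 (a splicing factor), and the other 7 of its 10 neighbours were not called. Near Rgs2, Ro60 was higher by 0.35 (adjusted p = 0.0422, edgeR). Near Rgs14, Prelid1 was higher by 0.37, and Grk6 and Ddx41 were lower, each by a log2 fold change of -0.42. Near Rgs11, Mrpl28, of the mitochondrial ribosome, changed by -0.55. None of the 8 neighbours of Rgs10 or the 11 of Rgs19 was called.

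Genes that followed the same course over the 6 samples were sought for the largest rise and the only fall, among 8729 tested genes whose log2 CPM averaged 3 or more. The Pearson correlation of log2 CPM with Rgs11 was highest for Pms2 (a DNA mismatch repair gene, r = 0.999), Ak4 (a mitochondrial adenylate kinase, r = 0.996), Scarb2 (r = 0.995), Cmah (r = 0.995) and Pdk1 (pyruvate dehydrogenase kinase, r = 0.993). Pdk1 and Ak4 were themselves called higher, with log2 fold changes of 0.82 and 0.95. With Rgs3 it was highest for E2f4 (r = 0.997), Ap1s2 (r = 0.987), Iscu (an iron-sulphur scaffold, r = 0.986), Cenpm (a centromere gene, r = 0.984) and Pnpla7 (r = 0.984). Of these, Iscu and Pnpla7 were themselves called lower, with log2 fold changes of -0.31 and -0.38. The points share libraries and a treatment contrast, and 605 genes exceeded 0.9 with Rgs11 and 198 with Rgs3, and the values are a description only.

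Of the 13 other RGS genes, Rgs9 and Rgs12 were tested and neither was called, Rgs4 and Rgs21 had 0 counts in every sample, and Rgs8 had at most 18. Rgs13, a gene of germinal centre B cells, had 0, 2 and 0 counts in vehicle-treated and 1, 2 and 1 in S1P-treated samples. Across the whole set of other RGS and G protein signalling genes, 65 of 99 were tested, 17 (26.2%) were higher and 5 (7.69%) were lower, with a median log2 fold change of 0.12. The shares of all tested genes were 12.7% and 10.4%. The 17 include Rgs9bp, and 16 were higher where 10 counts in every sample were required. The count of higher genes was 8 without vehicle replicate 3, and that of lower genes was 8 without S1P replicate 1.

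**Figure D4:**
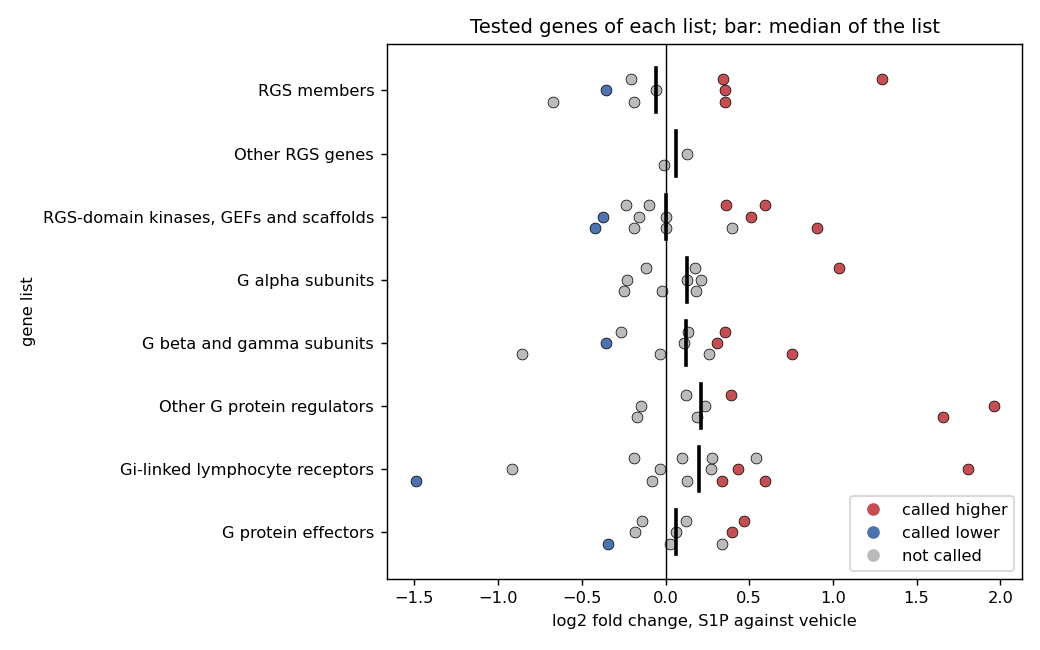
Log2 fold change (x axis), S1P against vehicle, of each tested gene in the lists of RGS and G protein signalling genes (y axis), with bars for the medians. The rightmost point is Rgs9bp, which rests on 1 to 9 raw counts in vehicle samples, Cxcr4 and Arrb1 come next, Cxcr3 lies furthest to the left, and the medians of the 8 lists lie between -0.05 and 0.21.

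Other proteins carry an RGS domain in front of a kinase, an exchange factor or a scaffold. Of 13 tested genes of this kind, 4 were higher and 2 were lower. Grk6, a receptor kinase that marks receptors for arrestin binding, had 2693, 2795 and 2675 normalised counts in vehicle-treated and 2266, 1754 and 2076 in S1P-treated samples (log2 fold change -0.42, adjusted p = 0.00472, edgeR). Arhgef1, the exchange factor that links Gα12 and Gα13 to RhoA in lymphocytes, was lower by a log2 fold change of -0.37 (adjusted p = 0.00621), and the related Arhgef11 was higher by 0.90 (adjusted p = 0.000627, edgeR). Exons on the opposite strand cover 13.4% of the exon bases of Arhgef11 (Gm66453 and Lrrc71). Axin2, Snx14 and Snx13 were higher by 0.60, 0.51 and 0.36. The calls of Axin2 and Snx13 were lost without vehicle replicate 3, that of Snx13 also without vehicle replicate 2, and that of Arhgef1 without S1P replicate 2. Grk2, the most abundant of the list at 56.2 RPKM in vehicle-treated samples, had a log2 fold change of -0.24 (adjusted p = 0.0239, edgeR) and so missed the threshold of size.

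Neither of the main substrates of the RGS proteins was called. Gnai2 and Gnai3 code for the main Gαi subunits of lymphocytes, and stood at 68.7 and 84.3 RPKM in vehicle-treated samples. Gnai2 had 4422, 4347 and 4455 normalised counts in vehicle-treated and 4612, 5265 and 5099 in S1P-treated samples, which do not overlap, and a log2 fold change of 0.18 (adjusted p = 0.0751, edgeR). Gnai3 had a log2 fold change of -0.12 (adjusted p = 0.223, edgeR). Of 9 tested α subunits, only Gnal was called higher (log2 fold change 1.04, adjusted p = 0.0161, edgeR). It had 24.6, 35.7 and 19.0 normalised counts in vehicle-treated and 65.5, 54.3 and 39.3 in S1P-treated samples. The Gnal call was lost without vehicle replicate 1, vehicle replicate 3 or S1P replicate 1. No α subunit was called lower with all libraries, but 2 were without S1P replicate 1. Of 10 tested β and γ subunits, Gngt2 (0.76), Gng2 (0.36) and Gng12 (0.31) were higher and Gng10 (-0.35) was lower. Gng12 was called in 3 of the 6 fits that left out 1 library. It was not called with total counts as the only scaling or with no filter. Gnb1, the most abundant at 37.8 RPKM, was not called (log2 fold change -0.03). Exons on the opposite strand cover 21.9% of the exon bases of Gngt2 (Abi3), 13.5% of Gng2 (Gm48283) and 9.11% of Gnal (Mppe1).

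Among 8 tested regulators of other kinds, Arrb1, which codes for β-arrestin 1, had 594, 847 and 455 normalised counts in vehicle-treated and 2340, 1731 and 1877 in S1P-treated samples. The groups were far apart, and the log2 fold change was 1.66 with a standard error of 0.18 (adjusted p = 0.000108, edgeR). Gpsm2, whose product holds Gαi in its GDP form during spindle orientation, was higher by 0.39, although exons of Clcc1 on the opposite strand cover 38.1% of its exon bases. Gpsm3, the most abundant at 15.7 RPKM, had a log2 fold change of -0.17 (adjusted p = 0.189, edgeR).

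Among 14 tested Gi-linked receptors of lymphocytes, Cxcr4, Ccr8, Ccr7 and S1pr1 were higher and Cxcr3 was lower. Cxcr4 and Cxcr3 kept their calls in all 6 fits that left out 1 library, Ccr7 and Ccr8 in 2 (lost without vehicle replicate 1 or 3 or S1P replicate 1 or 3), and S1pr1 in 0. The calls of Ccr8 and S1pr1 were also lost under DESeq2, with total counts as the only scaling and with no filter on low counts. S1pr1, the receptor the study turns on, had 154, 164 and 150 normalised counts in vehicle-treated and 192, 211 and 189 in S1P-treated samples (log2 fold change 0.34, adjusted p = 0.0405, edgeR). S1pr4 varied more within the S1P group, with 343, 172 and 238 normalised counts, than between groups (log2 fold change -0.03, adjusted p = 0.922, edgeR). Cxcr4, the receptor of CXCL12, went from 90.1, 96.2 and 67.3 to 354, 255 and 272 normalised counts, a log2 fold change of 1.81. Ccr7, the receptor that leads cells into lymph nodes and the most abundant of the list, was called higher by 0.43 (adjusted p = 0.0199, edgeR), although S1P replicate 2, at 2487, was within the vehicle range. Of 9 tested effectors, the adenylyl cyclase gene Adcy6 was higher by 0.47 and Pik3cg, the phosphoinositide 3-kinase catalytic subunit that Gβγ activates, by 0.40, while Adcy7, the cyclase gene with the highest level in these cells, was lower by a log2 fold change of -0.35. The calls were lost without vehicle replicate 3 for Adcy6, without S1P replicate 1 for Pik3cg, and without vehicle replicate 2 or S1P replicate 2 for Adcy7. Exons on the opposite strand cover 13.0% of the exon bases of Adcy7 (Brd7) and 8.69% of Adcy6 (Gm29331).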

How the data were processed

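RNA-seq libraries of 3 vehicle-treated and 3 S1P-treated samples were analysed, grouped by the treatment label. Per the labels the authors trimmed reads with Trim Galore, aligned them with STAR to GRCm39 and counted them with featureCounts, and the deposited table holds whole-number counts without normalization; versions, annotation release and strand setting are not given in the sources used here. Of 56941 identifiers, 56323 were named by GENCODE vM39. Counts were filtered with filterByExpr, scaled by TMM and tested with edgeR 4.0.16 (R 4.3.3, limma 3.58.1), treatment being the only term, with Benjamini-Hochberg adjustment over 13299 genes. The thresholds for a call were those of the study, 0.05 for the adjusted p and 0.3 for the size of the log2 fold change. Normalised counts are counts scaled to the mean effective library size.

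In simulated data of the same depths, edgeR recovered 84 of 97 genes changed by a log2 fold of 1 and 55 of 96 changed by 0.5. The simulation changed a far smaller share of its 13093 genes than was called here. Changes smaller than 0.5, such as those of Rgs1, Rgs2, Rgs3 and Rgs10, were not simulated, so their recovery is not known. Alternatives were DESeq2 1.42.0, limma-voom, other scalings, filters and thresholds, a replicate block, and each library left out; shares and order by canonical transcript length were added after seeing the data. The members and gene lists were chosen with earlier results of these data known. All 9 members were named. Of each other list, up to 4 called genes a direction by size and the most abundant tested gene were named. Also named were S1pr1, S1pr4, Gnai2 and Gnai3, called neighbours within 250 kb, and the 5 genes of highest correlation with Rgs11 and Rgs3. Gnb5, Rgs4, Rgs8, Rgs9, Rgs13, Rgs21 and the marker genes were named outside this rule. Intervals cover the spread between these samples. One called neighbour is not reported here.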

Additional observations from a re-analysis of the deposited data

How the results depend on the processing

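All 5 calls and 4 non-calls among the RGS genes held under DESeq2, limma-voom, RLE factors, upper-quartile factors, total count only, no filter on low counts, no threshold of size and the filter of at least 10 counts in every sample, which left out Rgs18. With 1 library left out, between 1 and 4 RGS genes were called higher and between 0 and 2 lower, and Rgs11 was the only member called higher in every such fit. The log2 fold change of Rgs14 then ran from -0.13 to 0.031, with the sign turned without vehicle replicate 1 (0.031) and S1P replicate 2 (0.0039). At a log2 fold change of at least 1, there was 1 RGS gene called higher and 0 lower, and of the other signalling genes 4 were higher, Rgs9bp with its few counts among them, and 1 lower. With 1 library left out, those other genes gave 8 to 16 higher and 4 to 8 lower calls. The Rgs1 share was 56.6% in vehicle-treated and 62.7% in S1P-treated samples without scaling for length, and 43.7% and 49.0% with the canonical transcript length.

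Deviations from the group means correlated by 0.12, -0.01 and 0.05 between samples of equal replicate number. Between samples of unequal number the correlations ran from -0.10 to 0.05. With 3 samples in each group, these values cannot settle whether equal numbers mark pairs. A fit with the replicate block still called 4 RGS genes higher and 1 lower, with 1.32 for Rgs11. Counting error limits genes with few counts, such as Rgs18 and Rgs9bp.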
